A study of Homo sapiens with 6 samples.

Results

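Acetylated NEIL1 (AcNEIL1) was mapped by ChIP-seq in HCT116 cells, an established human colorectal carcinoma line, and the sites described here are those that 2 of 3 replicates shared and replicate 2 lacked. Overlapping peaks of the 3 replicates were merged on chromosomes 1 to 22, and a merged region was kept where it held a peak of replicate 1 and a peak of replicate 3 but none of replicate 2. The members were thus chosen by the presence or absence of called peaks, so that presence is a description and not a result. The rule gave 2666 of 85138 merged regions, or 3.13%. They were set against 4655 regions of replicates 1 and 2 only (5.47%) and 8413 regions of replicates 2 and 3 only (9.88%). Of the 15734 regions seen in exactly 2 replicates, 16.9% were of replicates 1 and 3.

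The 3 ChIP libraries came from exponentially growing, untreated HCT116 cells, were immunoprecipitated with a custom rabbit antibody to AcNEIL1, and had an input library each. All 6 samples share the line, the genotype and the growth conditions, so the classes compared here are classes of regions within 1 condition and not treatments. Whether the replicates were separate cultures is not in the labels. Peaks were called against the input of the same number, and a region with no listed peak in a replicate has no value there. ChIP depth was 31921768, 28814429 and 35222701 tags in replicates 1, 2 and 3. Replicate 2 had the lowest ChIP depth, the deepest input (37772127 tags) and the longest peak list, with 59750 autosomal peaks against 39655 in replicate 1 and 49482 in replicate 3. What part these differences had in the class was not tested.

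NEIL1 is a DNA glycosylase: it finds oxidized bases, mostly pyrimidines, cuts them out of DNA and hands the site to the base excision repair pathway. The acetyltransferase p300 is known to acetylate NEIL1 on lysines of its C-terminal region, and the acetylated form is known to stay on chromatin in complexes with later repair enzymes. Transcribed genes with CpG-rich promoters are known for open chromatin around their starts.

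Regions of replicates 1 and 3 only lay more often at the start of a protein-coding gene than at its far end, while in the classes of replicates 1 and 2 or 2 and 3, taken whole, the 2 kinds of end were about even. Genes with such regions at their start or beside it included the methionyl-tRNA synthetase gene MARS1, the ribosomal protein gene RPL32, the immediate early gene IER2 and the chaperone gene HSPA8. A gene end here is a window of 1000 bp on each side of either end of a gene. The promoter sequences of these genes are given first, since the regions lie on or beside them; each runs 5′ to 3′ on the gene's strand from 250 bases before a RefSeq start to 50 after it (GRCh38.p14).

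In the first pair, taken by rank of fold, capitals mark the bases inside the AcNEIL1 region. The MARS1 promoter, at chr12:57487818-57488117 on the plus strand, is entered by the region over its last 108 bases. The promoter of RXFP4, the receptor of insulin-like peptide 5, at chr1:155941388-155941687 on the plus strand, lies wholly inside its region.
MARS1: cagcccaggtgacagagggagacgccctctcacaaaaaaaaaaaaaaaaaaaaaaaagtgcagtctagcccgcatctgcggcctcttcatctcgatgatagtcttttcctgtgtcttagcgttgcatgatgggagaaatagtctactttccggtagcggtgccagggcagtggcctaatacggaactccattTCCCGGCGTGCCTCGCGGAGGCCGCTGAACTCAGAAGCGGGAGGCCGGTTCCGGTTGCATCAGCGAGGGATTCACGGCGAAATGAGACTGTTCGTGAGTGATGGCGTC
RXFP4: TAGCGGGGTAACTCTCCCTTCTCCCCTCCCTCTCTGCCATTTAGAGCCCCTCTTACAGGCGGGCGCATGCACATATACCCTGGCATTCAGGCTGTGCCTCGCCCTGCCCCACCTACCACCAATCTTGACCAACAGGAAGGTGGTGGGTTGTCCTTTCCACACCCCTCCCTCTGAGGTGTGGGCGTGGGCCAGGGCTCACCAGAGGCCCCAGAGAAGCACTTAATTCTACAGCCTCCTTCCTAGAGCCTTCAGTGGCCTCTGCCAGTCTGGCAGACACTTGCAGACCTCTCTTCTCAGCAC
The 2 promoters differ in CpG content. The observed count of CpG over that given by the C and G content was 0.979 in MARS1, with 21 CpG, and 0.201 in RXFP4, with 5.

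In the second set, chosen after the values were seen, the region lies near the promoter without entering it. Capitals mark matches on either strand to the CCAAT box (CCAAT), the GC box (GGGCGG) or the ETS site (CCGGAAG). RPL32 is at chr3:12841533-12841832 on the minus strand, IER2 at chr19:13150161-13150460 on the plus strand and HSPA8 at chr11:123062087-123062386 on the minus strand.
RPL32: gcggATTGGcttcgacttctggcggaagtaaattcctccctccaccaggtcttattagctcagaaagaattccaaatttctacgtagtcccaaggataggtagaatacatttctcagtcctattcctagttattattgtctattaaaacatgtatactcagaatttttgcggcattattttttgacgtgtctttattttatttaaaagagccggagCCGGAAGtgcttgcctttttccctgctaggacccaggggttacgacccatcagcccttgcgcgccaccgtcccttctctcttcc
IER2: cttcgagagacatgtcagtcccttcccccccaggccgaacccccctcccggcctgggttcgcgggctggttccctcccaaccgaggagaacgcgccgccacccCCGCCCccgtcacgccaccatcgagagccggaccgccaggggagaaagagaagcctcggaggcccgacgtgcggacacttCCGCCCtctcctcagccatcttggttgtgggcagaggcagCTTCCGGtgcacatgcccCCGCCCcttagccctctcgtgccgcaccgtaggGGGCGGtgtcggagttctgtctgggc
HSPA8: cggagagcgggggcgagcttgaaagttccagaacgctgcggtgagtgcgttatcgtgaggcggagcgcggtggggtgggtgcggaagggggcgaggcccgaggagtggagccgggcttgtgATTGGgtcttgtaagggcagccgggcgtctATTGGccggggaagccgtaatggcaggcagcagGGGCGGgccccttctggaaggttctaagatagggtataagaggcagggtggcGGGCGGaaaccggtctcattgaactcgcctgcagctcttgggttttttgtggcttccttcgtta
RPL32 held 1 CCAAT box and 1 ETS site, IER2 held 4 GC boxes and 1 ETS site, and HSPA8 held 2 CCAAT boxes and 2 GC boxes. Of all 21155 protein-coding promoters in the table, 34.4% held a CCAAT box, 56.6% a GC box and 12.9% an ETS site. A match is a match of letters and says nothing of binding.

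The MARS1 region, chr12:57488010-57488851, is 842 bp wide and also reaches an end of the neighbouring gene ARHGAP9, whose strand is not known here. Its fold enrichment, which the authors' caller gives as summit pileup over local background, was 7.17 in replicate 1 and 5.42 in replicate 3. The pileup was 34.0 and 21.9 tags, and the nearest peak of replicate 2 was 8422 bp away. Its summits lay 186 and 319 bp downstream of the gene's start.

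At HSPA8, the gene of the constitutive 70-kDa heat shock chaperone, the region chr11:123062808-123063604 had a fold of 4.24 in replicate 1 and 6.26 in replicate 3, with 22 and 28.6 tags. The summits lay 525 and 536 bp outside the gene's outermost start, and the nearest peak of replicate 2 was 83557 bp away. At IER2, an immediate early gene of growth factor and stress responses, the region chr19:13150712-13151227 had folds of 3.93 and 3.70, with 22 and 24.8 tags. Its summits lay 522 and 579 bp inside the gene. The same region also lies at the start of the neighbouring gene STX10, with summits 558 and 615 bp upstream of that start. At RPL32, a protein of the large ribosomal subunit, the region chr3:12840892-12841363 had folds of 4.28 and 3.97, with 20.0 and 15.3 tags, and summits 451 and 463 bp inside the gene. At HSPA8, IER2 and RPL32 the summits of replicates 1 and 3 lay close together, and on the inside of the start at IER2 and RPL32.

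Gene ends were reached by 235 of the 2666 regions of replicates 1 and 3 only, 8.81% (95% Wilson interval 7.80 to 9.95). The share was 9.77% in regions of replicates 1 and 2 only, 10.5% in those of replicates 2 and 3 only and 18.2% in regions of all 3. The intervals cover counting error only, and regions are not replicates, so no p-value is given for any class.

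The 2 kinds of gene end parted once strand was used, which the promoter table gives for 15100 of 18969 autosomal protein-coding genes and for none on chromosome 8. Of the regions of replicates 1 and 3 only, 109 lay at a start, 4.09% (3.40 to 4.91), and 57 at a far end, 2.14% (1.65 to 2.76), a ratio of 1.91. Regions of replicates 1 and 2 only had 173 at a start, 3.72% (3.21 to 4.30), and 178 at a far end, 3.82% (3.31 to 4.41), a ratio of 0.972. Regions of replicates 2 and 3 only had 316 at a start, 3.76% (3.37 to 4.18), and 347 at a far end, 4.12% (3.72 to 4.57), a ratio of 0.911. Counted by whole regions, the classes thus had similar shares at starts, with overlapping intervals. The far-end share of whole regions of replicates 1 and 3 lay below both others with no overlap of intervals.

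The same tilt was present in regions of replicate 1 alone and of replicate 3 alone. Regions of replicate 1 alone had a ratio of starts to far ends of 1.54 and those of replicate 3 alone 1.22, against 0.940 in those of replicate 2 alone and 1.04 in regions of all 3. Their far-end shares were 2.14% in replicate 1 alone, 2.39% in replicate 3 alone and 3.34% in replicate 2 alone, so the low far-end share was found in each class without replicate 2. By summits in place of whole regions, 3.30% of the replicate 1 summits and 3.23% of the replicate 3 summits in regions of replicates 1 and 3 only lay at a start, and 1.58% and 1.54% at a far end.

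Distance from replicate 2 divided the class further, a split made after the data were seen. The median gap to the nearest replicate 2 peak was 897 bp, 52.3% of the regions had one within 1000 bp and 79.0% within 5000 bp. Of the 560 regions farther than 5000 bp, 42 lay at a start, 7.50% (5.60 to 9.98), and 7 at a far end, 1.25% (0.607 to 2.56). Of the 2106 nearer ones, 67 lay at a start, 3.18%, and 50 at a far end, 2.37%. The tilt towards starts was thus 6.0 to 1 in the isolated regions and 1.34 to 1 in the others.

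The other classes, split by their distance to the replicate that lacked a peak, showed less of it. Isolated regions of replicates 1 and 2 only lay at a start in 5.06% (3.82 to 6.68) and at a far end in 3.41% (2.41 to 4.80) of 909. Isolated regions of replicates 2 and 3 only lay at a start in 5.01% (4.18 to 5.99) and at a far end in 4.25% (3.49 to 5.16) of 2237. The ratios were 1.48 and 1.18, against 6.0 for replicates 1 and 3.

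**Figure D1:**
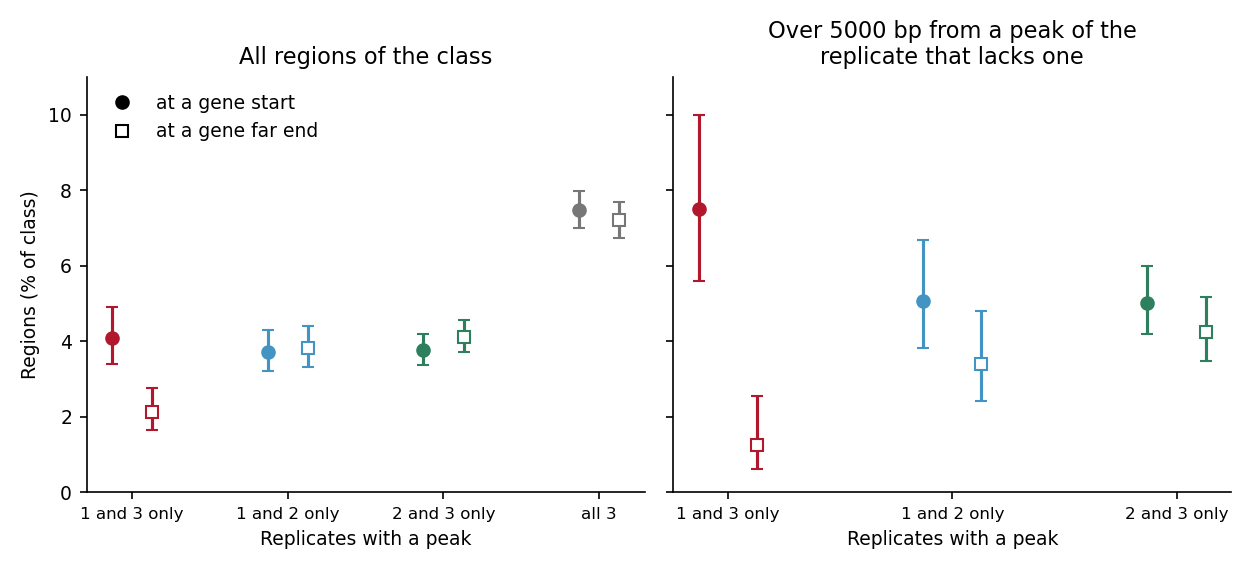
Share of regions (%) at the start (filled circles) and at the far end (open squares) of a protein-coding gene, for each set of replicates with a peak, with 95% Wilson intervals that cover counting error only. The left panel holds all regions and the right panel those over 5000 bp from a peak of the replicate that lacks one; starts exceed far ends most in regions of replicates 1 and 3 only, by 4.09% to 2.14% on the left and 7.50% to 1.25% on the right.

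Around the starts, the summits of regions of replicates 1 and 3 only were most frequent some way into the gene. In replicate 1 the fullest bin of 250 bp ran from 250 to 500 bp inside the gene, with 26 summits (0.975% of the class), and 5 lay in the last 250 bp before the start. In replicate 3 the fullest bin ran from 500 to 750 bp inside, with 20 summits (0.750%), and 13 lay in the last 250 bp before the start. In regions of replicates 1 and 2 only the fullest bin also ran from 250 to 500 bp inside. It held 34 summits (0.730%) in replicate 1 and 36 (0.773%) in replicate 2. In regions of replicates 2 and 3 only, replicate 3 was fullest from 0 to 250 bp inside, with 61 summits (0.725%). A peak some way into the gene was thus not particular to replicates 1 and 3. These are small counts, and no bin was tested.

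**Figure D2:**
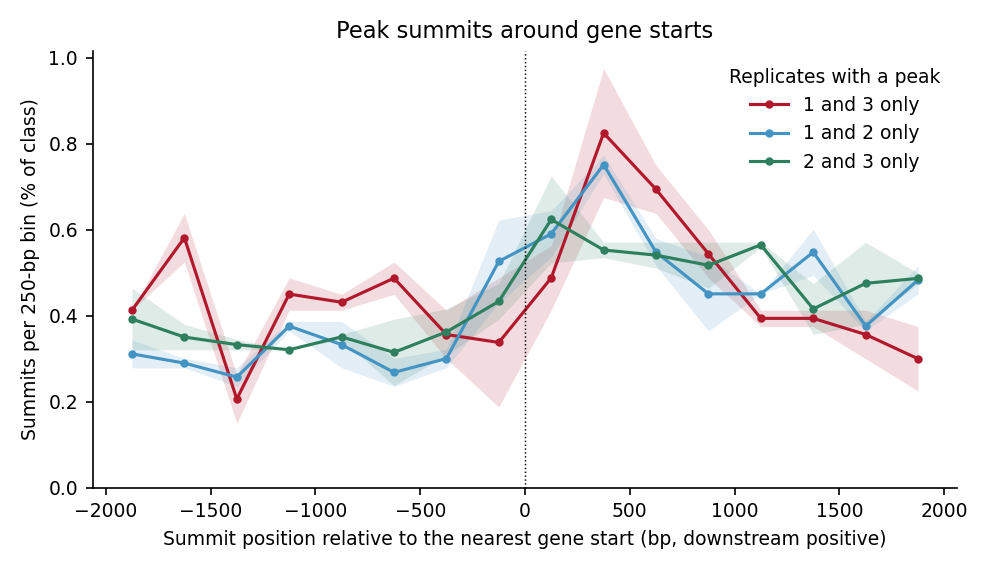
Peak summits in bins of 250 bp around the nearest start of a protein-coding gene (% of the class per bin, positions inside the gene positive), for regions of replicates 1 and 3, 1 and 2, and 2 and 3 only. Lines are the mean of the 2 replicates of the class and bands run from the lower to the higher. The lines for replicates 1 and 3 and for replicates 1 and 2 both peak in the bin from 250 to 500 bp.

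The promoters of the genes with such peaks were more often rich in CpG than those of the other classes of 2 replicates. Their interval overlapped that of replicates 1 and 2 but not that of replicates 2 and 3. The share was no higher than in replicate 1 alone. Among protein-coding genes with a gene-end peak in replicates 1 and 3 and none in 2, 95 had a peak at the start and a promoter in the table, and 71.6% of these promoters (61.8 to 79.7) had an observed over expected CpG of 0.6 or more. The share was 55.4% (48.0 to 62.6) of 175 genes for replicates 1 and 2, 49.2% (43.7 to 54.7) of 315 for replicates 2 and 3, and 39.9% of 892 for all 3 replicates. For peaks of 1 replicate it was 72.0% (66.0 to 77.2) of 246 genes in replicate 1, 64.3% of 224 in replicate 3 and 60.9% of 470 in replicate 2. It was 62.6% of all 21155 promoters. That whole set holds more than 1 promoter for some of its 15100 genes, while the sets above count 1 per gene. The 2 kinds of share are thus not like for like. The share for replicates 1 and 3 was above 62.6%, with an interval that reaches below it. The shares of both other classes of 2 replicates were below it. Median GC content hardly differed, at 64.3% for replicates 1 and 3, 65.0% for 1 and 2, and 64.7% for 2 and 3.

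The ETS site CCGGAAG was in 20.0% (13.2 to 29.1) of the promoters of replicates 1 and 3, 9.14% (5.71 to 14.3) of those of 1 and 2, and 6.67% (4.40 to 9.98) of those of 2 and 3, and in 12.9% of all promoters. It was in 16.7% (12.5 to 21.8) of those of replicate 1 alone, with overlapping intervals. The CCAAT box was in 42.1% for replicates 1 and 3, 29.1% for 1 and 2 and 28.9% for 2 and 3. The AP-1 site TGACTCA was in 3 of 95 promoters for replicates 1 and 3 (3.16%), close to the 3.98% of all promoters. Both strands were searched, and matches were counted once per promoter. The shares of all promoters again count every promoter of a gene, and those of the classes 1 per gene.

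Promoters that a region entered were less often CpG-rich than those of the genes with a peak at the start. Only 36 regions of replicates 1 and 3 (1.35%) overlapped a promoter in the table, against 2.19% of those of replicates 1 and 2 and 2.21% of those of 2 and 3. Of the 42 promoters so overlapped, 38.1% (25 to 53.2) were CpG-rich, against 44.2% (35.4 to 53.4) of 113 for replicates 1 and 2 and 36.2% (30.0 to 43.0) of 207 for 2 and 3. The ETS site was in 4.76% (1.32 to 15.8) of them, against 11.5% (6.85 to 18.7) for replicates 1 and 2 and 4.35% (2.30 to 8.06) for 2 and 3. On promoters that a region enters, both shares for replicates 1 and 3 were thus below those of 1 and 2. They were slightly above those of 2 and 3, and all these intervals overlap. The order of the ETS shares against replicates 1 and 2 was turned round, but rests on 2 of the 42 promoters. RXFP4 and MARS1, printed above, stand for the CpG-poor and the CpG-rich kind.

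Counted over genes, 173 of the 18969 protein-coding ones (0.912%) carried gene-end peaks of replicates 1 and 3 without one of replicate 2. For replicates 1 and 2 the number was 370 (1.95%) and for replicates 2 and 3 it was 679 (3.58%). Of the 173 genes, 105 had a region of replicates 1 and 3 only at an end, and at the other 68 the peaks of the 2 replicates lay apart or in a region that replicate 2 touched outside the window. A peak at the start alone was found at 76 genes and at the far end alone at 31, against 93 and 97 for replicates 1 and 2, and 155 and 194 for replicates 2 and 3. Replicate 1 alone had 239 and 92, a ratio of 2.60 that is above the 2.45 of replicates 1 and 3, and replicate 3 alone had 206 and 126, a ratio of 1.63. Counted over genes, the tilt was thus as large in replicate 1 alone. Folds at the 173 genes ran from 2.12 to 7.17 in replicate 1 (median 3.58) and from 2.39 to 6.76 in replicate 3 (median 3.68).

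Ribosomal protein genes, which encode the protein part of the ribosome, had the highest count of the 30 lists. Of 77, 8 had gene-end peaks in replicates 1 and 3 only, 10.4% (5.36 to 19.2), against 0.912% of all protein-coding genes, and none had them in replicates 1 and 2 only or in replicates 2 and 3 only, which allows up to 3.90% each. Counting every class, replicate 1 had peaks at 25 of these genes, replicate 2 at 5 and replicate 3 at 14, and replicate 1 alone held 13 of them. The count of 8 depended on the settings: it was 1 with a −log10 q of 5 or more in replicates 1 and 3, 2 with that limit in all lists, 3 with windows of 500 bp, 4 with reciprocal overlap and 5 with no replicate 2 peak within 5000 bp. It was 10, 12 and 21 on leaving out replicates 1, 2 and 3.

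RPL13, of the large subunit, had the highest pileup of the 8, 37.0 and 28.6 tags, but folds of only 3.25 and 2.69. RPL23A had folds of 2.91 and 3.79, and RPL30 had 3.09 and 2.84. In these 3 genes and in RPL32 both peaks fell in 1 region. In RPL22 (3.87 and 3.14) and RPL12 (2.86 and 3.23) the peaks of the replicates lay apart. Apart from RPL32, the genes named here had folds under 4 in both replicates.

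Some of these regions covered a small nucleolar RNA gene inside the ribosomal protein gene; snoRNAs guide chemical changes of ribosomal RNA and are often cut from introns of such hosts. The RPL13 region overlapped SNORD68 and the RPL23A region covered SNORD42B. A further one, at the gene of the isoleucyl-tRNA synthetase IARS1, overlapped SNORA84. In all, 6 regions of replicates 1 and 3 only held or touched a snoRNA gene (0.225%, 0.103 to 0.490). The count was 1 for replicates 1 and 2 only (0.0215%, 0.00379 to 0.122) and 1 for replicates 2 and 3 only (0.0119%, 0.00210 to 0.0673). It was 6 for regions of all 3 replicates (0.0531%, 0.0243 to 0.116) and 5 for replicate 1 alone (0.0415%, 0.0177 to 0.0972). The counts are small, and the interval overlaps those of replicates 1 and 2 and of all 3.

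Aminoacyl-tRNA synthetase genes, whose enzymes load tRNAs with amino acids, were looked at after the values were seen. Of 20, 4 had peaks in replicates 1 and 3 only (20.0%, 8.07 to 41.6), none in 1 and 2 only and 1 in 2 and 3 only, and since MARS1 led to the list, this count supports nothing. IARS1 had folds of 6.24 and 3.63 with the nearest replicate 2 peak 102518 bp away, LARS1 4.08 and 3.73, and AARS1 3.35 and 3.50. Likewise chosen late, splicing factors gave SRSF1 (2.19 and 5.10) and HNRNPU (4.02 and 2.43), and nuclear transport gave XPO1 (4.58 and 3.57) and RAN (3.60 and 3.03). The XPO1 region lay only 153 bp from a replicate 2 peak, and at RAN the peaks of the replicates lay apart.

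Heat shock and chaperone genes counted 3 of 33 in replicates 1 and 3 only (9.09%, 3.14 to 23.6), against 0.912% of all protein-coding genes. They counted 2 in 1 and 2 only (6.06%, 1.68 to 19.6, against 1.95%) and 1 in 2 and 3 only (3.03%, 0.537 to 15.3, against 3.58%). Beside HSPA8 these were HSPA1B, an inducible 70-kDa chaperone, with folds of 4.23 and 3.84, and CRYAB, a small heat shock protein, with 4.10 and 2.73. The near-identical neighbour HSPA1A had a peak in all 3 replicates, with folds of 3.06, 4.84 and 4.80 in replicates 1, 2 and 3. How reads that match both copies were placed is not given in the sources used here, so the HSPA1A and HSPA1B peaks are uncertain.

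Immediate early genes, which respond within minutes to growth factors or stress, counted 4 of 52 in replicates 1 and 3 only (7.69%, 3.03 to 18.2, against 0.912% of all protein-coding genes), and 2 each in the other classes (3.85%, 1.06 to 13, against 1.95% for replicates 1 and 2 and 3.58% for 2 and 3). Beside IER2, KLF6, a zinc finger transcription factor, had folds of 3.65 and 3.68 with summits 692 and 634 bp upstream of its start. ZFP36, which binds and destabilises short-lived mRNAs, had folds of 4.60 and 3.84 past its far end. DUSP6, a phosphatase of the ERK kinases, had separate peaks of 3.65 and 3.27. FOS, JUN, JUNB, EGR1, ATF3 and MYC had no gene-end peak in any replicate. The intervals of this list overlap between the classes.

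Genes of the integrated stress response and the unfolded protein response counted 2 of 24, XBP1 and DDIT3 (8.33%, 2.32 to 25.8, against 0.912% of all protein-coding genes). They counted 2 in replicates 1 and 2 only (8.33% against 1.95%) and 1 in replicates 2 and 3 only (4.17% against 3.58%). XBP1, the transcription factor made by spliced mRNA in endoplasmic reticulum stress, had folds of 4.69 and 3.55 at its start, with 31.0 and 23.9 tags and the nearest replicate 2 peak 95816 bp away. At DDIT3, the transcription factor CHOP next to MARS1, the folds were 3.87 and 3.83 in a region that a replicate 2 peak also touched. Keratin genes counted 4 of 55 (7.27%, 2.86 to 17.3, against 0.912%), with 3 in replicates 1 and 2 only (5.45%, 1.87 to 14.9, against 1.95%) and 4 in replicates 2 and 3 only (7.27%, 2.86 to 17.3, against 3.58%). Of the 4 keratin genes in replicates 1 and 3 only, 1 had a region of that class at an end. At the others the peaks of the replicates lay apart. Of the 30 lists, 13 had no gene in replicates 1 and 3 only, among them base excision repair (26 genes), the proteasome (43), cytoskeletal housekeeping genes (29), glycolysis (19), blood markers (39) and HOX genes (39). Nuclear oxidative phosphorylation genes counted 1 of 82 (1.22%). With 0.912% of all protein-coding genes in the class, a count of 0 in lists of these sizes is not a result.

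**Figure D3:**
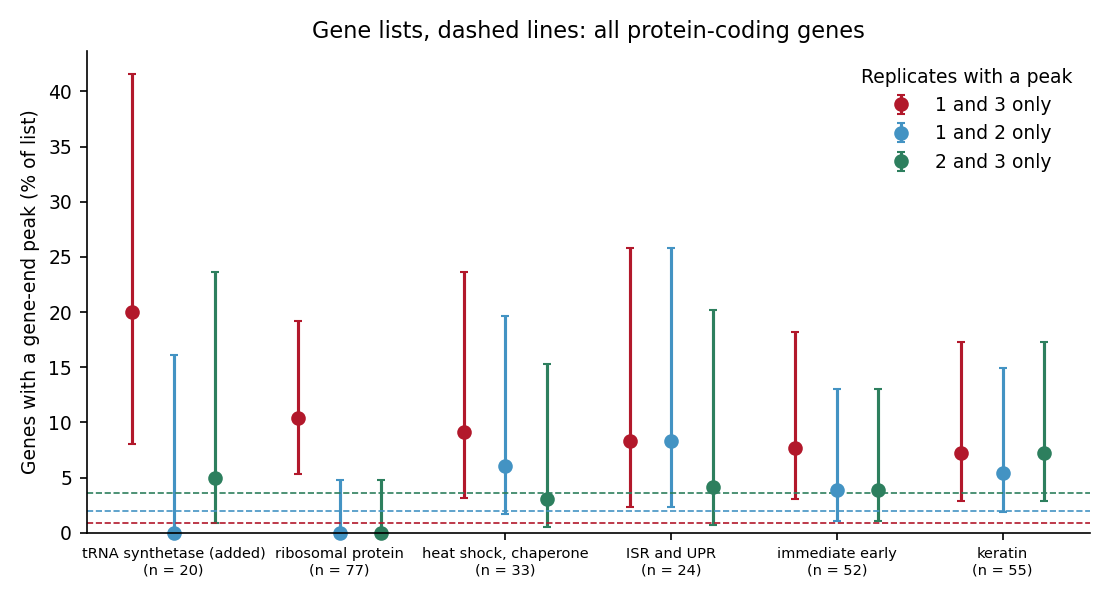
Share of each gene list (%) with gene-end peaks in replicates 1 and 3, 1 and 2, or 2 and 3 only, with 95% Wilson intervals that cover counting error only; dashed lines in the same colours give the shares of all protein-coding genes (0.912%, 1.95% and 3.58%). Ribosomal protein genes reach 10.4% for replicates 1 and 3 and 0 in both other classes, and keratin genes 7.27%, 5.45% and 7.27% in the order of the legend; the tRNA synthetase list was added after the values were seen.

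The 20 protein-coding genes with the highest mean rank of fold in the 2 lists included MARS1, HSPA8 and RXFP4. DNAJA3, a mitochondrial co-chaperone, had folds of 4.80 and 4.43, LONP1, a mitochondrial protease, 4.26 and 4.67, and PPP1R15B, which directs a phosphatase to the initiation factor eIF2α, 4.08 and 5.36. TNS4, a focal adhesion protein, had 4.03 and 6.76. RCC2, a mitotic regulator, had 6.55 and 4.00. At TNS4 and RCC2 the folds of the replicates come from different sites: the TNS4 peaks lay at opposite ends of the gene, and the replicate 3 peak at RCC2 was in a region of all 3 replicates. At 15 of the 20 genes a region of replicates 1 and 3 only lay at an end, and TAF15, HSPB2, SLC27A1 and SPATA24 were among the 5 with none. Folds were the authors' own and chose these genes, so they describe the genes and test nothing.

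**Figure D4:**
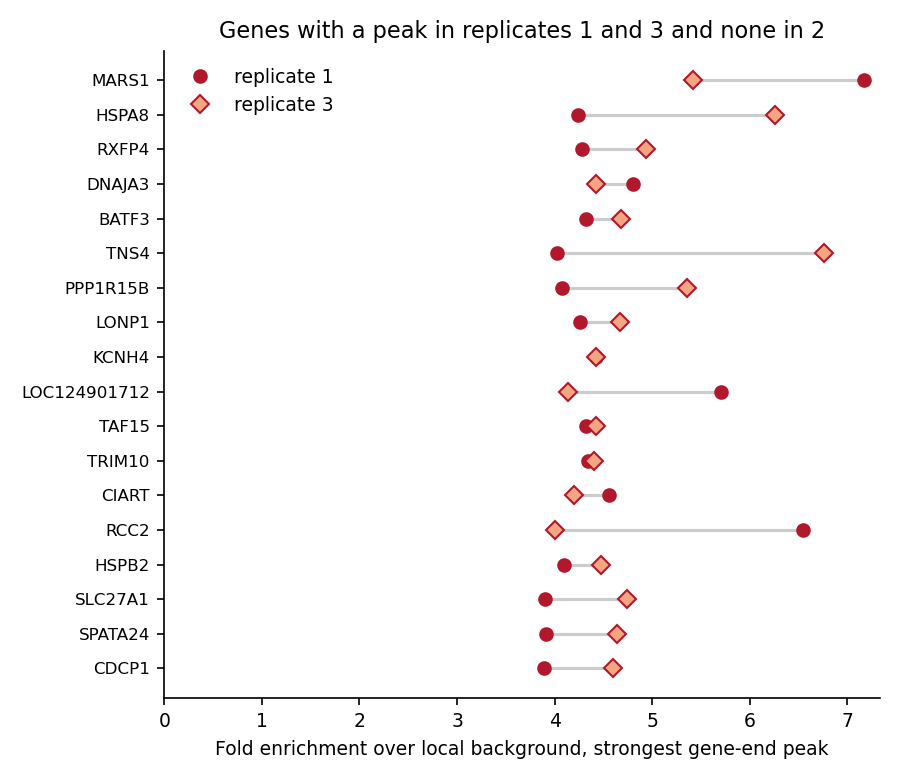
Fold enrichment over the local background (the authors' ratio) of the strongest gene-end peak in replicate 1 (circles) and replicate 3 (diamonds) at 18 of the 20 protein-coding genes with the highest mean rank of fold and no gene-end peak in replicate 2. Lines join the replicates, whose peaks lie in 1 region at 10 of the 18 genes and at different sites at the others; MARS1 is highest in replicate 1 at 7.17 and TNS4 in replicate 3 at 6.76.

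Most regions lay away from gene ends, and so did those with the highest folds. Of the regions of replicates 1 and 3 only, 56.9% (55 to 58.7) overlapped a protein-coding gene, against 61.1% of those of replicates 1 and 2 and 61.0% of those of 2 and 3. The first by rank, chr2:223698449-223699593, had folds of 7.44 and 6.76 and was 55733 bp from the nearest protein-coding gene, AP1S3. The next, chr10:70576367-70578229, had folds of 8.4 and 5.60 and was 7917 bp from PALD1, and the one after, chr16:69521231-69522594, had 5.24 and 6.99 and was 43372 bp from NFAT5. MARS1 followed them, so the class holds strong sites both at genes and between them.

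The regions were narrower than those of the other classes of 2 or 3 replicates, and pileup was close to theirs within replicates 1 and 3 for the classes of 2. Their median width was 608 bp (quartiles 480 and 804, range 268 to 3527), against 713 bp for replicates 1 and 2 only, 749 bp for 2 and 3 only and 1709 bp for all 3. Regions of 1 replicate were narrower still, with medians of 313 to 395 bp. Single peaks in them had median widths of 396 bp in replicate 1 and 370 bp in replicate 3, against 378 bp for replicate 1 peaks in regions of 1 and 2 and 376 bp for replicate 3 peaks in regions of 2 and 3. Replicate 2 peaks in those regions had 511 and 538 bp, so peak width differed between replicates and little between classes within replicates 1 and 3. In 92.1% of the regions each replicate had 1 peak. Fragment lengths in the headers were 268, 294 and 249 bp in replicates 1, 2 and 3, and their part in the widths was not tested.

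Median pileup was 19 tags in replicate 1 and 18.1 tags in replicate 3. Replicate 1 had the same median, 19, in regions of replicates 1 and 2 only, and replicate 3 had 19.1 in regions of 2 and 3 only. Median fold was 3.54 and 3.66, against 3.38 in replicate 1 for the regions of 1 and 2 and 3.55 in replicate 3 for those of 2 and 3. The local background was lower, at a median of 4.42 tags in replicate 1 and 4.00 in replicate 3, against 4.85 and 4.41 in those same replicates in the other classes. Within a replicate, the regions of replicates 1 and 3 only thus differed from the other shared regions by about 1 tag or less in pileup and in background.

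**Figure D5:**
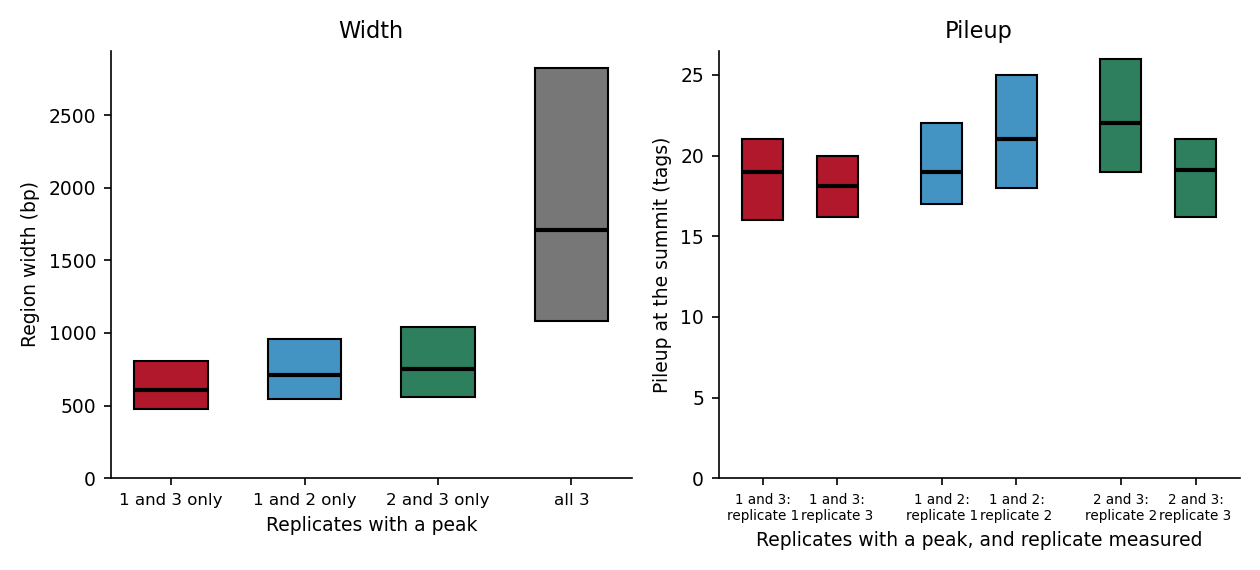
Width of regions (bp, left) and pileup at the summit (tags, right) by the replicates with a peak; boxes run from the lower to the upper quartile and the black line is the median. Regions of replicates 1 and 3 only have a median width of 608 bp, below the other classes shown, and median pileups of 19 and 18.1 tags; replicate 3 pileup was scaled to the depth of its input.

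The widest region, chr10:112531005-112534531, lay inside VTI1A, a SNARE of vesicle transport, and was 3527 bp wide with folds of 5.94 and 5.33. The highest pileup was at chr21:8203496-8203855, 2133 bp from the ribosomal RNA gene RNA45SN2, with 364 and 254 tags. The local background there was 210 and 191 tags, and the folds were 1.73 and 1.33. The second highest, chr21:8467740-8468203, had 222 and 206 tags, a background of 157 and 138 and folds of 1.41 and 1.49. At both sites a high pileup stood on a high background, and the folds were below the median of the class.

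Some of the 2666 regions passed the rule narrowly. A replicate 2 peak lay within 50 bp of 150 of them, whose median folds were 3.35 and 3.66, and within 1 bp at regions in PRDM16 and near CTNNBIP1 and JAM3. Just outside the rule, 79 regions of all 3 replicates had a replicate 2 overlap of at most 50 bp, with median folds of 3.64 and 3.69 in replicates 1 and 3 and 3.33 in replicate 2. In 244 of the regions of replicates 1 and 3 the strongest peak of either had a −log10 q below 2. The values just inside and just outside were close.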

How the data were processed

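Groups and replicate numbers came from the sample labels. The authors deposited 1 peak table per ChIP replicate, called with MACS 2.1.1.20160309 against the input of the same number, per the file headers, with a q-value cutoff of 0.05 and at most 2 tags kept per position. Coordinates are hg38, 1-based. Bowtie2 and MACS2 are among the tools in the submitters' processing notes, without versions. The deposited signal is the pileup at the summit in tags; it is whole in replicates 1 and 2 and scaled down in replicate 3, whose ChIP was deeper than its input, as the headers say of the larger library. The −log10 columns, also deposited, hold the p and q that the caller assigned. The fold is the authors' ratio of pileup to local background, each with 1 added, from which the background was recovered. Inputs were not analysed beyond this.

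Peaks were merged with an overlap of at least 1 bp, and a region's fold is that of its strongest peak in a replicate. Genes were those of a RefSeq table of GRCh38.p14 without strand or exons, less 789 rows on scaffolds. Strand came from the RefSeq promoter table, for 79.6% of the protein-coding genes. Exons were not used, so exonic and intronic positions are not given. Wilson 95% intervals were computed with scipy 1.17.1 (Python 3.11.15, pandas 2.3.3), and merging and annotation were tested on simulated data. No class has replicates of its own, so there is no test.

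Named genes were the 20 protein-coding genes with the highest mean percentile rank of fold, members of the leading lists, a fixed set of genes, and the regions first by rank, width, pileup and closeness to replicate 2. Some of these genes are not reported here. The members and the gene lists were chosen with earlier results of these data known. Alternatives were stricter −log10 q, equal list lengths, reciprocal overlap, a minimum distance to replicate 2, leaving out each replicate, other windows, other genes and summits.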

Additional observations from a re-analysis of the deposited data

Results flagged for a closer look

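Regions of the same kind were found outside chromosomes 1 to 22, in data that the comparisons do not use. The X chromosome held 7 regions with a peak in replicates 1 and 3 and none in 2, 24 of replicates 1 and 2 only and 29 of replicates 2 and 3 only, of 396 merged regions. Unlocalised and unplaced scaffolds also held 7 regions of replicates 1 and 3 only, and 15 in each of the other classes, of 187 merged regions. Both counts of 7 were flagged because they exceed 3, a limit for listing that tests nothing. Both were the lowest of the 3 classes, as over chromosomes 1 to 22 together.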

How the results depend on the processing

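The number of regions, their widths and the number of genes moved with most settings, and the tilt towards gene starts did not reverse in any. With −log10 q of 5 or more in all 3 lists there were 632 regions, with a start share of 5.54%, a median width of 964 bp, pileups of 23 and 21.9 tags in replicates 1 and 3, and 67 genes. With that limit in replicates 1 and 3 alone there were 208 regions, 10.6% at gene ends and 7.21% at starts (ratio of starts to far ends 3.75), 830 bp, 22 and 21.5 tags, and 20 genes. Equal list lengths moved the width to 653 bp and the replicate 3 pileup to 19.1 tags. Reciprocal overlap of 50% left 1365 sites, taken as the replicate 1 peaks themselves. Their median of 387 bp is thus a peak width. It compares with the 396 bp of replicate 1 peaks in the reported class and not with the width of merged regions. These peaks reached the ends of 54 genes without a gene-end peak of replicate 2, a narrower definition than the reported one. Without a replicate 2 peak within 5000 bp there were 560 regions, 11.8% at gene ends, 7.50% at starts and 1.25% at far ends (ratio 6), 17 and 17.2 tags, and 65 genes. Windows of 500 bp gave 5.25% at gene ends, 2.51% at starts and 1.16% at far ends; windows of 5000 bp gave 27.0%, 14.1% and 9.79%, and 309 genes. Adding long non-coding RNA genes gave 14.0% at gene ends and replicate 1 summits 6.68%. The cause of each shift beyond the setting's own construction was not tested.

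Leaving out a replicate changes the class itself. Over the 3 such settings regions ran from 15616 (without replicate 3) to 19751 (without replicate 1), with 15926 without replicate 2. Gene-end shares ran from 6.93% to 13.8%, start shares from 3.02% to 5.64%, far-end shares from 2.14% to 4.87% and their ratio from 1.16 to 1.57. Widths ran from 321 to 861 bp, genes from 605 to 1953, replicate 1 pileups from 17 to 22 tags and replicate 3 pileups from 17.2 to 21.9 tags.

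In 5 settings (the reported one, −log10 q of 5 in all lists, equal list lengths and both windows) the ratio of starts to far ends was 1.44 to 2.50 for replicates 1 and 3, 0.972 to 1.26 for 1 and 2, and 0.852 to 0.986 for 2 and 3. Over 5000 bp from the replicate without a peak it was 6.0, 1.48 and 1.18. With every replicate kept, immediate early genes numbered 1 to 4 and heat shock genes 1 to 4 over the settings. No paired analysis was possible because the inputs have no table of their own here and no test was made. Depth limits what a missing peak means: no count lies behind it.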

Other observations

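Starts outnumbered far ends among the regions of replicates 1 and 3 only on 14 of the 21 chromosomes with strand in the table, were equal on 2 and fewer on 5. For replicates 1 and 2 only the counts were 9, 3 and 9, and for replicates 2 and 3 only they were 7, 1 and 13. Long non-coding RNA gene ends were reached by 6.53% of the regions of replicates 1 and 3, 7.86% of those of 1 and 2 and 6.95% of those of 2 and 3. Of other genes looked at by name, ACTB had gene-end peaks in replicates 2 and 3 only, CDKN1A in replicate 3 only and NTHL1 in replicate 2 only. GAPDH, NEIL1, NEIL2 and OGG1 had none. MALAT1 and NEAT1, long non-coding RNAs of nuclear bodies, had peaks in all 3 replicates.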
